A study of Homo sapiens with 32 samples.

Results

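The messenger RNA cap is read by a small group of proteins, and the genes described here encode these proteins and their inhibitors. The 10 genes were chosen by name, as known cap-binding proteins, eIF4E-binding proteins (4E-BPs) and subunits of the nuclear cap-binding complex. No cut on a measured value was used, but earlier results of these data were known when the genes were chosen. They are EIF4E, EIF4E2, EIF4E3, EIF4EBP1, EIF4EBP2, EIF4EBP3, EIF4ENIF1, NCBP1, NCBP2 and NCBP3, and they are 10 of the 58721 genes in the expression tables. Of these, 8 reached the mean of 1 RPKM needed for testing in RNA-Seq and the same 8 did so in the Subunit-Seq inputs, while EIF4E3 and EIF4EBP3 stayed below it in both assays. RPKM is a read count scaled by the counted length of the gene and by the size of the library.

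The cells were HEK293T, a human embryonic kidney line, exposed to 600 nM thapsigargin (Tg) for 16 h or to the solvent DMSO. By inhibiting SERCA, Tg drains calcium from the endoplasmic reticulum, and cells answer with the unfolded protein and integrated stress responses. RNA-Seq of polyadenylated RNA had 4 groups of 2 libraries, which were DD cells with Tg, DD cells with DMSO, WT cells with Tg and WT cells with DMSO. DD cells carried eIF3d with the substitutions S528D and S529D, which put aspartate in place of a pair of serines, and WT cells carried the wild-type protein. Subunit-Seq also had 4 groups of 2 libraries, all from cells of the genotype HA-eIF3d-TEV, which were the immunoprecipitate (IP) and its input in Tg and in DMSO. In this assay eIF3d was pulled down by its HA tag and its cap-binding domain was cut free with TEV protease, so the IP holds the RNA that stayed with that domain. The m6A-eCLIP experiment covered DD and WT cells in Tg and in DMSO and is represented by 1 list of called N6-methyladenosine positions for each of the 4 combinations. The sources used here do not say how genotypes were made, whether each line is 1 clone, or whether paired libraries came from separate cultures. The p-values therefore measure only the spread between these libraries, which may be technical. In the main Subunit-Seq fit that spread, and so each SE, came from the trend over all genes at a like level. A gene's own spread between its libraries did not enter it.

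As background, EIF4E binds the cap and brings the scaffold eIF4G and the helicase eIF4A to the mRNA, and the 4E-BPs compete with eIF4G for the same surface of EIF4E until mTORC1 phosphorylates them. EIF4E2 (4EHP) binds caps without recruiting eIF4G and acts in translational repression, and EIF4ENIF1 (4E-T) carries eIF4E to the nucleus and to processing bodies. In the nucleus the heterodimer of NCBP2, which holds the cap, and NCBP1, which supports it, accompanies new transcripts to export. The eIF3d subunit tested in this series can itself bind the cap, and EIF4EBP1 is a known target gene of the stress transcription factor ATF4.

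The promoters were searched for the composite element through which stress-induced ATF4 acts, and for the growth-linked E-box long described for EIF4E. In the 250 bases before each RefSeq start (GRCh38.p14), the ATF4 element, written TGATGNAAN and searched on both strands, was found in 3.13% of 35116 windows. Of the 10 genes, 8 had at least 1 window in that table, 11 windows in all. EIF4EBP1 and NCBP1 were not among them, so the search does not bear on EIF4EBP1 as an ATF4 target. Of these 11 windows, 1 held the ATF4 element, and it belonged to an alternative start of EIF4E3, 13 to 5 bases upstream of it. The E-box CACGTG, which reads the same on both strands, was found in 6.34% of all windows and in 2 of the 11, those of EIF4E and EIF4EBP3. EIF4E held it at 225 to 220 and again at 72 to 67 bases upstream, and EIF4EBP3 held it at 13 to 8 bases upstream. The windows of EIF4E (chr4:98929134-98929383, minus strand) and EIF4E3 (chr3:71729119-71729368, minus strand) are printed 5′ to 3′ as the ones with most E-box matches and with the ATF4 element, with the matched letters in capitals. A match is a description of the letters and not evidence of binding.

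EIF4E: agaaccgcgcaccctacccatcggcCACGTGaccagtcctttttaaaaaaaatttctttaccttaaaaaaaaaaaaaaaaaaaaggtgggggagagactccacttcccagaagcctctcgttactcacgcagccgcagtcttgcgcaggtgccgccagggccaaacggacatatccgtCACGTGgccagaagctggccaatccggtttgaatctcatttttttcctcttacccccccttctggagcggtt

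EIF4E3: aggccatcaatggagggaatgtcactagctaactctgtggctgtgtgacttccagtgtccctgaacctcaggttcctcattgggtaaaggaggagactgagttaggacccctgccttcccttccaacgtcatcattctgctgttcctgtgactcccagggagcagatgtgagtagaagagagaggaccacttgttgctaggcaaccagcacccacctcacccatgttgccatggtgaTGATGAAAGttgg

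RNA-Seq libraries held 4508228 to 10162095 reads in genes, Subunit-Seq inputs 5102476 to 14605936 and IPs 10805599 to 16856142, as recovered from the steps between the deposited values. MT-RNR1 and MT-RNR2, the ribosomal RNAs made in mitochondria, held 25.4% to 57.3% of the reads in RNA-Seq libraries, most in the second DD Tg library, 4.64% to 20.4% of inputs and 0.286% to 0.705% of IPs. The second DMSO input stood apart with 6395 genes at 1 RPKM or more, against 11452 in the first DMSO input. EIF3D, the gene of the mutated and tagged factor, had 64.3 and 29.2 RPKM in DD Tg, 37.5 and 76.6 in DD DMSO, 44.2 and 91.2 in WT Tg, and 68.3 and 69.6 in WT DMSO. These values overlap between genotypes, and the tables do not show the substitutions. Of the HEK293T-associated genes, VIM was at 15.2 RPKM or more and NEFL at 2.61 or more in all 16 libraries, and the leukocyte genes PTPRC and CD3E were listed at 0 in all 16. NEFM, INA and LIN28B varied widely, from 0.0693 to 86.3, 0.297 to 21.7 and 0.536 to 9.63 RPKM. Of the genes of other cell types, ALB, HBB and PECAM1 stayed at or under 0.109 RPKM, DCN, APOA1 and HBA1 reached 0.555, 2.42 and 3.79, and COL1A1 reached 49.9. In bulk libraries, a gene expressed by fewer cells and one with less RNA per cell cannot be told apart.

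By RPKM, EIF4EBP1 was by far the most abundant of the 10 mRNAs in both assays. The gene (ENSG00000187840.4) spans chr8:38030534-38060365 on GRCh38 and has an effective counted length of 1073 bases. It had 647 and 167 RPKM in DD Tg, 609.8 and 613 in DD DMSO, 507 and 1209 in WT Tg, and 731 and 1378 in WT DMSO. The lowest value lay in the second DD Tg library, and the DD DMSO pair was close (SD 1.94 RPKM, n = 2) while the WT DMSO pair was far apart (SD 457 RPKM, n = 2). Across the 16 libraries EIF4EBP1 ranked between place 46 and place 208 of all genes by RPKM. It made up 89.3% to 99.9% of the summed RPKM of the 4E-BP genes, the lowest share being in the first DMSO IP. This share depends on the counted lengths, 1073 bases for EIF4EBP1 and 7258 for EIF4EBP2. In that IP their reads were 2716 and 2189.

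Set against the protein it inhibits, the EIF4EBP1 mRNA was present at 60.0 to 1485 times the RPKM of EIF4E, with a median ratio of 245 over 16 libraries. The lowest ratio was in the second DD Tg library and the highest in the second Tg input. EIF4E counts were modest, 67 to 1088 reads per library, and are divided by an effective length of 14069 bases, which joins all annotated exons. A long union of exons lowers RPKM where most transcripts use a part of it, so this ratio holds for RPKM and not for molecules. The pseudogene EIF4EP2 was counted at 0.996 to 5.80 RPKM on 5 to 55 reads, and how reads shared with such copies were assigned is not given in the sources used here.

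**Figure D1:**
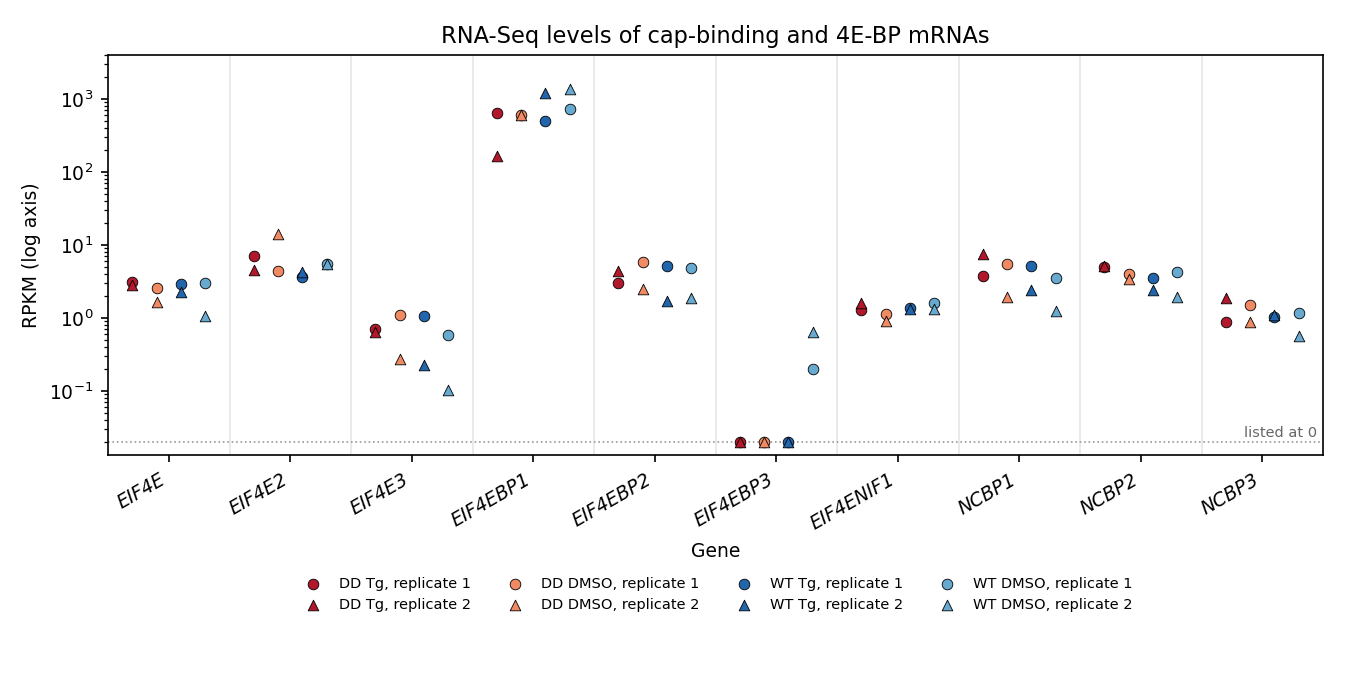
RPKM (log axis) of each of the 10 genes in the 8 RNA-Seq libraries, 1 point per library, circles for replicate 1 and triangles for replicate 2, with genes listed at 0 drawn on the dotted line. EIF4EBP1 lies between 167 and 1378 RPKM, apart from the other genes, none of which exceeds 14.0 RPKM.

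The cytoplasmic cap-binding proteins were low. EIF4E (ENSG00000151247.12, chr4:98879276-98929133, minus strand) had 3.06 and 2.78 RPKM in DD Tg, 2.54 and 1.67 in DD DMSO, 2.95 and 2.24 in WT Tg, and 3.03 and 1.06 in WT DMSO. Its DD Tg values lay above both DD DMSO values, and its WT groups overlapped. EIF4E2 (ENSG00000135930.13, chr2:232550689-232583644, plus strand) had 7.13 and 4.52 RPKM in DD Tg, 4.45 and 14.0 in DD DMSO, 3.66 and 4.32 in WT Tg, and 5.41 and 5.47 in WT DMSO. The second DD DMSO library was the highest, and both WT Tg values lay below both WT DMSO values. EIF4E3 (ENSG00000163412.12, chr3:71659363-71754773, minus strand), the least studied cap-binding relative of EIF4E, ranged from 0.103 to 1.1 RPKM on 5 to 95 reads. EIF4E2 exceeded EIF4E in RPKM in all 16 libraries, 1.24 to 14.2 times.

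The other inhibitors were far below EIF4EBP1. EIF4EBP2 (ENSG00000148730.6, chr10:70404145-70428618, plus strand), the 4E-BP that predominates in brain, had 2.98 and 4.41 RPKM in DD Tg, 5.80 and 2.46 in DD DMSO, 5.21 and 1.70 in WT Tg, and 4.79 and 1.89 in WT DMSO. These groups overlapped in each comparison. EIF4EBP3 (ENSG00000243056.1, chr5:140547662-140549576, plus strand) was listed at 0 in all 6 libraries of DD Tg, DD DMSO and WT Tg, and WT DMSO held 1 and 2 reads (0.2 and 0.642 RPKM). In those 6 libraries 3 reads, the limit that a count of 0 allows, correspond to at most 0.659 RPKM, which covers counting error only. EIF4EBP3 lies inside the readthrough gene ANKHD1-EIF4EBP3, which reached 0.207 RPKM at most in the 16 libraries, and ANKHD1 itself reached 0.472. EIF4A1, the main helicase partner of eIF4E, reached 0.799 RPKM at most. Whether reads shared by overlapping genes were dropped in counting was not tested, so these low values are uncertain. EIF4ENIF1 (ENSG00000184708.17, chr22:31436963-31493568, minus strand) had 1.29 and 1.60 RPKM in DD Tg, 1.14 and 0.894 in DD DMSO, 1.37 and 1.31 in WT Tg, and 1.61 and 1.31 in WT DMSO. Its DD DMSO values were the lowest and did not overlap those of DD Tg or of WT DMSO.

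The nuclear cap-binding subunits were expressed at a level like that of the cytoplasmic ones. NCBP1 (ENSG00000136937.12, chr9:97633821-97673748) had 3.76 and 7.52 RPKM in DD Tg, 5.40 and 1.96 in DD DMSO, 5.22 and 2.43 in WT Tg, and 3.48 and 1.24 in WT DMSO. The second DD Tg library was the highest and the second WT DMSO library the lowest. NCBP2 (ENSG00000114503.10, chr3:196935406-196942528, minus strand) had 4.98 and 5.13 RPKM in DD Tg, 4.03 and 3.43 in DD DMSO, 3.56 and 2.43 in WT Tg, and 4.32 and 1.95 in WT DMSO. Its DD Tg values lay above those of DD DMSO and of WT Tg. NCBP2 shares its locus with NCBP2AS2, a gene counted at 9.46 to 88.5 RPKM in the 16 libraries, and reads of overlapping stretches may be divided between them. NCBP3 (ENSG00000074356.16, chr17:3802158-3846246, minus strand), which can bind the cap and NCBP1 in an alternative complex, ranged from 0.573 to 1.88 RPKM with overlapping groups. The ratio of NCBP2 to NCBP1, the partners of the heterodimer, ranged from 0.682 to 1.75 in RNA-Seq.

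By median over the 8 RNA-Seq libraries the order was EIF4EBP1 (629.7 RPKM), EIF4E2 (4.97), NCBP2 (3.79), EIF4EBP2 (3.70), NCBP1 (3.62), EIF4E (2.66), EIF4ENIF1 (1.31), NCBP3 (1.05), EIF4E3 (0.605) and EIF4EBP3 (0). Only EIF4EBP1 had a range apart from that of the next gene. NCBP1 exceeded EIF4E in 8 of 8 libraries and EIF4E2 exceeded NCBP2 in 7 of 8, whereas EIF4EBP2 exceeded NCBP1 in 4 of 8.

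No RNA-Seq comparison called any of the 8 tested genes. With limma on log2(RPKM + 1) and Benjamini-Hochberg adjustment over 9637 genes, 0% of genes were called for Tg against DMSO in DD cells, Tg against DMSO in WT cells, DD against WT in Tg, DD against WT in DMSO, and the difference between genotypes in the Tg response. At an unadjusted p under 0.05 those 5 comparisons held 25, 24, 82, 68 and 21 genes, and limma's voom on recovered reads also called 0. For EIF4EBP1 the log2 difference was -1.25 ± 0.91 (SE) for DD Tg against WT Tg, -0.71 ± 0.91 for DD DMSO against WT DMSO, -0.89 ± 0.91 for DD Tg against DD DMSO and -0.36 ± 0.91 for WT Tg against WT DMSO, each with an adjusted p of 1. The difference between DD and WT in the Tg response was -0.53 ± 1.29, with an adjusted p of 1.00.

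The comparisons with DD Tg moved with its second library. The EIF4EBP1 fold of DD Tg over WT Tg was 1.28 in replicate 1 and 0.138 in replicate 2, and that of DD Tg over DD DMSO was 1.06 and 0.273. Without the second DD Tg library, where mitochondrial ribosomal RNA took most reads, the log2 difference of DD Tg against DD DMSO was 0.082. With those mitochondrial reads left out of the totals, EIF4EBP1 stood at 952 and 391 RPKM in DD Tg, 1056 and 821 in DD DMSO, 1011 and 1724 in WT Tg, and 1300 and 2089 in WT DMSO, so that library remained the lowest. TRIB3, another ATF4 target, was also lowest there, with 41.5 and 8.04 RPKM in DD Tg, 52.9 and 21.0 in DD DMSO, 47.7 and 75.3 in WT Tg, and 43.0 and 69.2 in WT DMSO. The part of mitochondrial reads in these values was not tested. DD DMSO against WT DMSO was lower in both replicates, at 0.834 and 0.445 of WT DMSO, and kept its sign in 16 of 16 alternative settings, at -0.26 without the second WT DMSO library.

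Some genes had groups that did not overlap, which with 2 libraries a group is common. For DD Tg against DD DMSO, EIF4E, EIF4ENIF1 and NCBP2 were higher in both DD Tg libraries, 3 of the 8 tested, against 8.59% of all tested genes, and 0 were lower, against 4.14%. For WT Tg against WT DMSO, EIF4E2 was lower, 1 of 8, against 3.73% of all genes, and 0 were higher, against 6.55%. For DD Tg against WT Tg, EIF4E2 and NCBP2 were higher, 2 of 8, against 10.2%, and 0 were lower, against 6.06%. For DD DMSO against WT DMSO, EIF4EBP1 and EIF4ENIF1 were lower, 2 of 8, against 4.7%, and 0 were higher, against 11.1%. None of these passed the test, and comparisons that use the same libraries are not independent of each other.

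EIF4EBP1 was also read in the tagged cells of Subunit-Seq. It had 576 and 784 RPKM in the Tg IP, 1199.9 and 1791 in the Tg input, 234 and 345 in the DMSO IP, and 724 and 521 in the DMSO input. Both Tg inputs lay above both DMSO inputs, and both Tg IPs lay above both DMSO IPs. Input EIF4EBP1 in Tg was 1.66 times that in DMSO in replicate 1 and 3.43 times in replicate 2, and the IP was 2.46 and 2.27 times. For EIF3D the Tg input was 0.771 times the DMSO input in replicate 1 and 6.84 times in replicate 2. The median gene moved by -0.35 and 0.66 (log2) between the same inputs and by 0.13 and 0.04 between the same IPs, and EIF4EBP1 exceeded those medians by 1.08 and 1.12 in the inputs and by 1.16 and 1.14 in the IPs.

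The input difference of EIF4EBP1, Tg against DMSO, was 1.25 ± 0.46 (log2, SE), at place 215 of 9813 genes by size, with an adjusted p of 0.761. The same difference between IPs was 1.24 ± 0.46, at place 108, with an adjusted p of 1. Neither passed limma's test adjusted over all genes, and 5 genes (0.051%) were called between inputs and 7 (0.0713%) between IPs, of which 2 (0.0204%) were lower in Tg. TRIB3 was among those called between inputs, at 3.02 ± 0.66 with an adjusted p of 0.00985, and lost that call in 12 of 15 alternative settings. It had 89.9 and 117 RPKM in the Tg IP, 65.3 and 127 in the Tg input, 8.68 and 26.1 in the DMSO IP, and 16.0 and 6.56 in the DMSO input. Of the 8 tested cap-binding and 4E-BP genes, 0 were called in either comparison. EIF4EBP1 was the only one of the 8 with Tg inputs above both DMSO inputs, against 6.39% of all genes, and EIF4EBP1 and EIF4ENIF1 were the 2 with Tg IPs above both DMSO IPs, against 18.1%. None of the 8 had Tg libraries below both DMSO libraries, against 8.23% of genes in the inputs and 7.48% in the IPs.

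**Figure D2:**
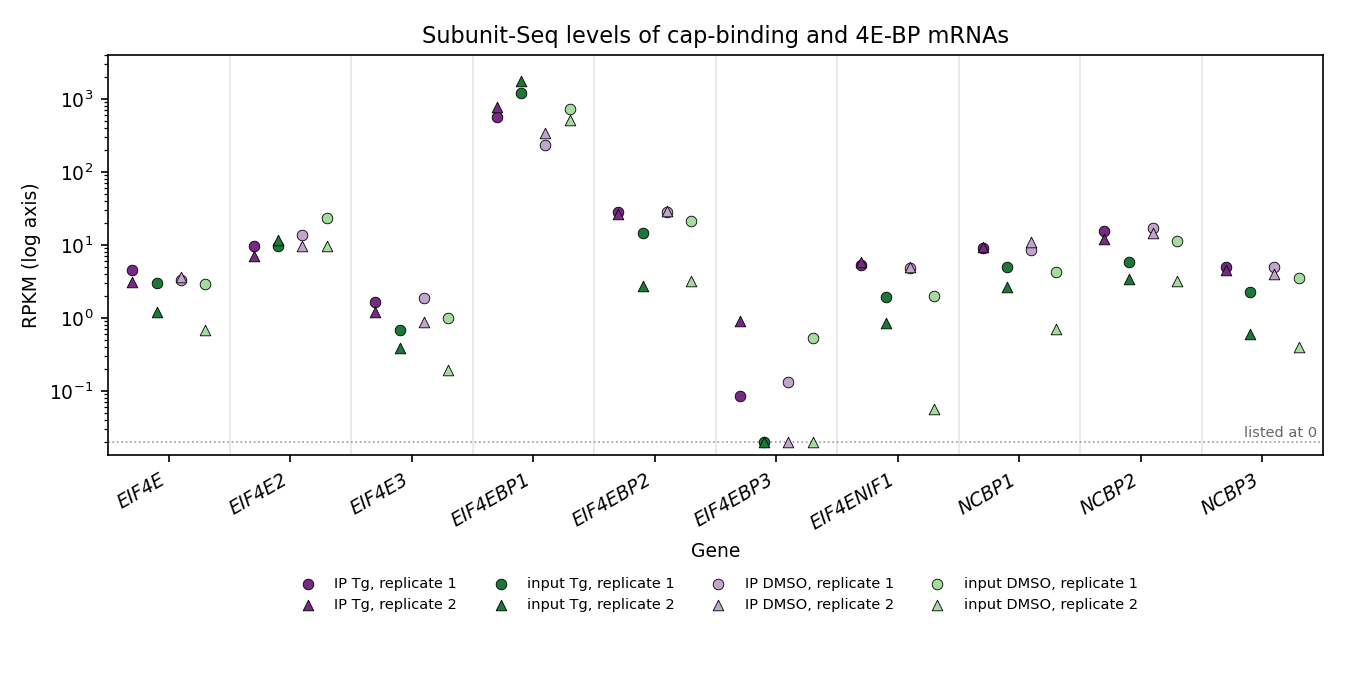
RPKM (log axis) of each of the 10 genes in the 8 Subunit-Seq libraries, 1 point per library, circles for replicate 1 and triangles for replicate 2, with genes listed at 0 drawn on the dotted line. EIF4EBP1 lies lower in the IP than in its input in both treatments, while EIF4EBP2, EIF4ENIF1, NCBP1, NCBP2 and NCBP3 lie higher in the IP.

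The recovery of the 10 mRNAs with the eIF3d cap-binding domain, read as IP against input, ran in opposite directions for the main 4E-BP and most of the others. EIF4EBP1 was lower in the IP than in its input in 4 of 4 pairs, at 0.480 and 0.438 of the input in Tg and at 0.324 and 0.662 in DMSO. Its log2 difference was -1.12 ± 0.46 (SE) in Tg, with an adjusted p of 0.0691, and -1.11 ± 0.46 in DMSO, with an adjusted p of 0.0587, which did not pass. The median gene was higher in the IP, by 0.87 in Tg and 0.96 in DMSO, so EIF4EBP1 stood 2.00 and 2.07 below it, at places 9528 and 9481 of 9813. Median-ratio scaling set the median gene to 0.01 in both treatments, and EIF4EBP1 then lay at -2.21 in Tg and -2.43 in DMSO. EIF4EBP1 has the shortest counted length of the 8 tested genes, 1073 bases, and the others run from 5115 (NCBP2) to 14720 (NCBP3). Whether length bears on its recovery was not tested. The difference between the treatments in this recovery was -0.02 ± 0.65, with an adjusted p of 1.00, and its sign turned in 5 of 15 alternative settings.

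EIF4EBP2 had 28.4 and 26.6 RPKM in the Tg IP, 14.7 and 2.76 in the Tg input, 27.9 and 28.9 in the DMSO IP, and 21.6 and 3.17 in the DMSO input. The 4 IPs agreed closely, and the inputs differed between replicates by 5.31 times in Tg and 6.81 times in DMSO. Its log2 difference of IP against input was 1.89 ± 0.67 in Tg, adjusted p = 0.0363, and 1.60 ± 0.67 in DMSO, adjusted p = 0.0604, so it passed in Tg. Relative to the median gene of the same pair, EIF4EBP2 stood at 0.05 in replicate 1 and 2.03 in replicate 2 in Tg, and at -0.02 and 1.27 in DMSO, so it was near the median gene in replicate 1. With median-ratio scaling its difference was 0.90 in Tg and 0.43 in DMSO. EIF4EBP1 exceeded EIF4EBP2 by 20.3 and 29.5 times in the Tg IP and by 81.8 and 649 times in the Tg input. In DMSO it did so by 8.39 and 11.9 times in the IP and by 33.5 and 164 times in the input. These folds hold for RPKM and not for molecules. EIF4EBP3 was at 1 and 10 reads in the Tg IP, 0 and 0 in the Tg input, 1 and 0 in the DMSO IP, and 3 and 0 in the DMSO input, too few to read a direction.

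The 4E-T gene and the nuclear subunits lay higher in the IP than in the input in each pair, as did the median gene. EIF4ENIF1 had 5.36 and 5.86 RPKM in the Tg IP, 1.93 and 0.861 in the Tg input, 4.76 and 4.95 in the DMSO IP, and 2.02 and 0.0563 in the DMSO input, the last on 5 reads. It was called in DMSO, 1.71 ± 0.60 with an adjusted p of 0.0286, and stood at 1.5 ± 0.60 with an adjusted p of 0.0649 in Tg. NCBP1 had 8.95 and 9.46 RPKM in the Tg IP, 4.91 and 2.68 in the Tg input, 8.55 and 11.0 in the DMSO IP, and 4.32 and 0.703 in the DMSO input. It was called in DMSO, 1.83 ± 0.63 with an adjusted p of 0.0260, and stood at 1.13 ± 0.63 with an adjusted p of 0.181 in Tg. Relative to the median gene EIF4ENIF1 stood at 0.62 in Tg and 0.75 in DMSO, and NCBP1 at 0.25 and 0.87. With median-ratio scaling EIF4ENIF1 was at 0.71 in Tg and 1.22 in DMSO and NCBP1 at 0.21 and 0.92, and neither was called. A call in 1 treatment and not in the other does not show that the treatments differ, and the test of that difference called 6 of 9813 genes (0.0611%) and 0 of the 8.

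NCBP2 and NCBP3 ran the same way without a call. NCBP2 had 15.7 and 12.3 RPKM in the Tg IP, 5.79 and 3.38 in the Tg input, 17.0 and 14.7 in the DMSO IP, and 11.5 and 3.16 in the DMSO input, a log2 difference of 1.45 ± 0.65 in Tg and 1.22 ± 0.65 in DMSO, with adjusted p of 0.0989 and 0.140 in limma's test. NCBP3 had 5.03 and 4.55 RPKM in the Tg IP, 2.28 and 0.610 in the Tg input, 4.95 and 3.95 in the DMSO IP, and 3.47 and 0.395 in the DMSO input, a log2 difference of 1.33 ± 0.60 in Tg and 1.12 ± 0.60 in DMSO, with adjusted p of 0.0998 and 0.142. In each treatment the IP lay above the input in both replicates. Most of the DMSO difference was shared with the median gene, above which NCBP2 stood by 0.57 in Tg and 0.26 in DMSO and NCBP3 by 0.46 and 0.16. With median-ratio scaling NCBP2 was at 0.49 in Tg and 0.064 in DMSO and NCBP3 at 0.57 and 0.39.

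The cytoplasmic cap-binding genes stayed near or below the median gene. EIF4E had 4.59 and 3.12 RPKM in the Tg IP, 3.04 and 1.21 in the Tg input, 3.30 and 3.69 in the DMSO IP, and 2.91 and 0.676 in the DMSO input. Its log2 difference was 0.69 ± 0.60 in Tg and 0.81 ± 0.60 in DMSO, 0.19 and 0.15 less than the median gene, and with median-ratio scaling it was -0.094 in Tg and -0.0075 in DMSO. EIF4E2 had 9.80 and 7.10 RPKM in the Tg IP, 9.61 and 11.8 in the Tg input, 13.7 and 9.62 in the DMSO IP, and 23.4 and 9.62 in the DMSO input. Its log2 difference was -0.32 ± 0.66 in Tg and -0.37 ± 0.66 in DMSO, 1.19 and 1.33 below the median gene. EIF4E3 ranged from 0.888 to 1.85 RPKM in the 4 IPs and from 0.191 to 0.993 in the 4 inputs, and was not tested.

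Counted together, 1 of the 8 tested genes was called higher in the IP in Tg and 2 of 8 in DMSO, against 14.6% and 21.4% of all genes, and 0 were called lower, against 1.62% and 1.75%. Calls in either direction were 16.2% of all genes in Tg and 23.2% in DMSO, so the count for these genes is near the background. The IP lay above both inputs for 6 of 8 in each treatment, against 64.7% of genes in Tg and 56.0% in DMSO, and below both inputs for EIF4EBP1 alone, 1 of 8, against 6.35% and 6.76%. The median log2 difference of the 8 was 1.23 in Tg and 1.17 in DMSO, against 0.87 and 0.96 for all genes.

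**Figure D3:**
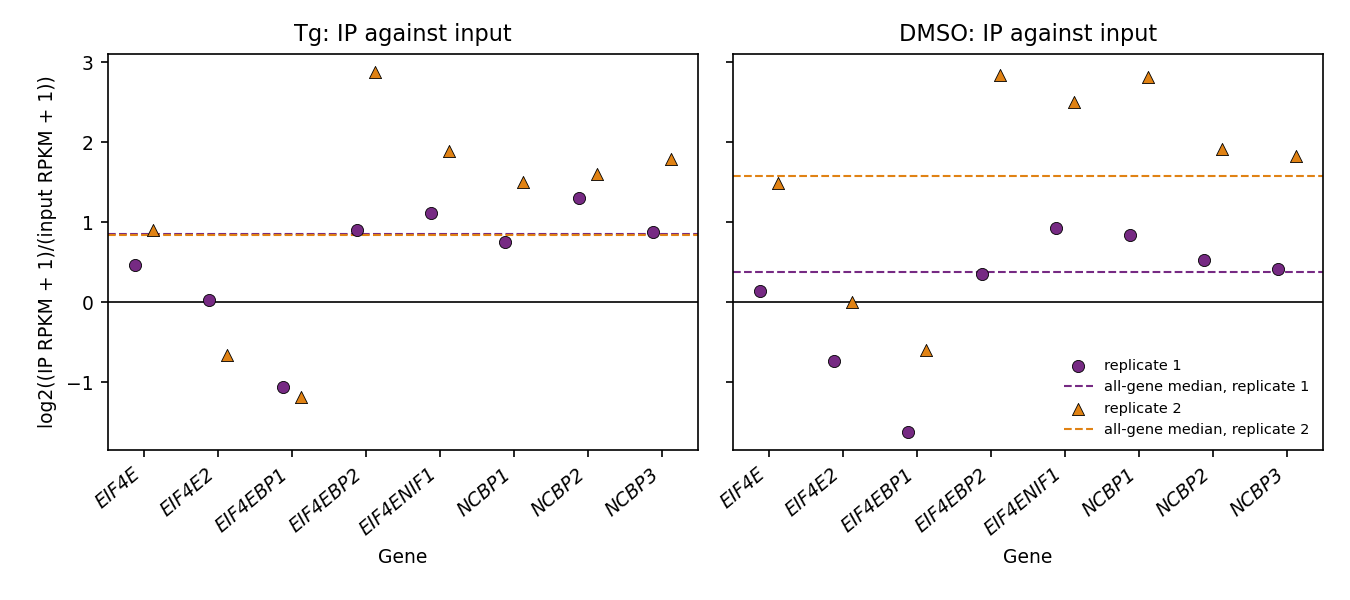
log2 ratio of IP to input, each with 1 RPKM added, for the 8 tested genes in Tg (left) and DMSO (right), circles for replicate 1 and triangles for replicate 2, with dashed lines at the median of all 9813 genes in that replicate. EIF4EBP1 lies below 0 and below the median line in all 4 pairs, and the DMSO replicates are offset, with all-gene medians of 0.38 and 1.57.

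The second DMSO input moved with these results. Within replicate 1 the median gene was 0.38 (log2) higher in the DMSO IP than in its input, and within replicate 2 it was 1.57 higher, while in Tg both replicates gave 0.85 and 0.84. Without the second DMSO input, 0 of 9813 genes were called between IP and input in DMSO, and 0 of the 8. Without the first DMSO input 5073 genes were called, among them EIF4EBP2, EIF4ENIF1, NCBP1, NCBP2 and NCBP3. Leaving out the first DMSO IP kept NCBP1 alone, and leaving out any of the other 5 libraries kept 0 of the 8 in DMSO. In Tg, leaving out either DMSO input gave EIF4EBP2, EIF4ENIF1, NCBP2 and NCBP3, while leaving out any of the other 6 libraries gave 0. In all, the DMSO calls were lost in 11 of 14 alternative settings for EIF4ENIF1 and in 11 of 14 for NCBP1, and the Tg call of EIF4EBP2 in 12 of 15. The low gene number of that input was not tested as a source of the calls. For EIF4EBP1 the sign held in 15 of 15 settings in each treatment, from -2.43 to -0.61 in DMSO and from -2.21 to -0.92 in Tg, and 1 of these 30 passed, the DMSO value with mitochondrial ribosomal reads left out of the totals (-1.30, adjusted p = 0.0429).

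In the IP the order of the mRNAs differed from RNA-Seq. Over the 4 IPs the medians were EIF4EBP1 460.3 RPKM, EIF4EBP2 28.1, NCBP2 15.2, EIF4E2 9.71, NCBP1 9.20, EIF4ENIF1 5.16, NCBP3 4.75, EIF4E 3.49, EIF4E3 1.42 and EIF4EBP3 0.110. EIF4EBP1, EIF4EBP2, NCBP1 and EIF4E had ranges apart from that of the gene below. EIF4EBP2 was thus the second of the 10 in the IP and the fourth in RNA-Seq, though these come from cells of different genotype and from different kits. Over the 4 inputs, where the medians ran EIF4EBP1 962, EIF4E2 10.7, EIF4EBP2 8.92 and NCBP2 4.58, EIF4EBP1 alone stood apart from the next.

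By pattern over the 8 Subunit-Seq libraries, the 3 genes nearest to EIF4E of 9812 were EML1, NAPG and CAST, at root mean square log2 differences of 0.09, 0.10 and 0.10. Those nearest to NCBP1 were USP14, SACM1L and DHX15, at 0.10, 0.11 and 0.11. EIF4EBP1 had no gene so close, its nearest being MYDGF at 0.30, EIF6 at 0.36 and HAX1 at 0.38. The 8 libraries share replicate and IP differences, so these distances describe the profiles alone.

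For the partners of these proteins, 5 lists of 10 genes each were read against the 14.6% of all tested genes called higher in the IP in Tg and the 21.4% in DMSO. The lists were chosen with earlier results of these data known. The eIF4F partners had 4 of 9 tested members called higher in Tg and 6 of 9 in DMSO, with median log2 differences of 1.38 and 1.88. EIF4G1, the scaffold that competes with 4E-BPs for EIF4E, had 175 and 67.2 RPKM in the Tg IP, 17.9 and 10.2 in the Tg input, 111 and 79.1 in the DMSO IP, and 25.1 and 1.71 in the DMSO input, a log2 difference of 2.91 ± 0.66 in Tg (adjusted p = 0.000558 in limma) and 3.49 ± 0.66 in DMSO (adjusted p = 3.08e-05). Among 4EHP and 4E-T repression partners 5 of 10 were called higher in each treatment, with medians of 1.58 in Tg and 1.70 in DMSO, led by GIGYF1 at 3.02 ± 0.62 in Tg and 2.51 ± 0.62 in DMSO and GIGYF2 at 2.41 ± 0.61 and 2.24 ± 0.61, the scaffolds that bind EIF4E2. Nuclear cap-binding complex partners had 1 of 9 in Tg and 3 of 9 in DMSO, led by THOC2, a subunit of the export complex THO, at 3.43 ± 0.65 and 3.69 ± 0.65. Genes of mTORC1 control of 4E-BPs had 0 of 9 in Tg and 3 of 9 in DMSO, led by MTOR at 2.04 ± 0.62 in DMSO. Cap synthesis and removal had 0 of 9 in either treatment, with median log2 differences of 0.41 in Tg and 0.67 in DMSO, below the all-gene medians of 0.87 and 0.96.

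No list had a member called lower, and in RNA-Seq, between inputs, between IPs and in the treatment difference of recovery 0 members of the 5 lists were called. With 1 library left out, the counts for eIF4F partners ranged from 0 to 5 in Tg and 0 to 8 in DMSO, for repression partners from 0 to 4 and 0 to 7, for nuclear partners from 0 to 4 and 0 to 9, for mTORC1 control from 0 to 3 and 0 to 7, and for cap synthesis and removal from 0 to 1 and 0 to 3. Without the replicate number as a term in the fit, 0 members of any of the lists were called, with adjusted p of 0.106 in Tg and 0.0994 in DMSO for EIF4G1. With median-ratio scaling 1 was called, GIGYF1 in Tg.

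Called m6A positions fell almost entirely on EIF4EBP1. After duplicates were removed the lists held 5050 positions for DD Tg, 1796 for DD DMSO, 1572 for WT Tg and 3000 for WT DMSO, without score, coverage or replicate, so they allow no test. EIF4EBP1 held 15 positions in DD Tg (0.297% of the list, 95% Wilson interval 0.180% to 0.490%), 3 in DD DMSO (0.167%, 0.0568% to 0.490%), 1 in WT Tg (0.0636%, 0.0112% to 0.359%) and 7 in WT DMSO (0.233%, 0.113% to 0.481%). These intervals cover counting error alone, and all 4 overlap. All these positions lay on the plus strand. By number of positions, with equal counts sharing the best place, EIF4EBP1 came 13th of 1887 protein-coding spans with a position in DD Tg. It came 25th of 565 in DD DMSO and 18th of 1078 in WT DMSO. In WT Tg its place was 104 of 509. With 1 position, the fewest such a span can hold, that is a shared last place.

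Most positions lay near an end of the gene span, and near its start in DD Tg and WT DMSO alone. The span is 29832 bases long, while the counted length of the gene is 1073 bases. Whether the places of the positions follow the layout of the exons was not tested. Of the 15 in DD Tg, 4 lay within 150 bases of the annotated start, 10 within 450 bases of the annotated end, and 1 at 3201 bases from the end. Of the 3 in DD DMSO and the 1 in WT Tg, all lay near the end. Of the 7 in WT DMSO, 2 lay near the start and 5 near the end. The 4 lists together named 20 different positions, of which 16 were in 1 list, 3 in 2 lists and 1 in all 4. The position in all 4 was chr8:38060209, 156 bases before the annotated end. The 3 positions in 2 lists, 38060164, 38060215 and 38060219, were each in DD Tg and WT DMSO. The gene spans used here carry no exons, so the annotation of these positions as coding or untranslated is not given.

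**Figure D4:**
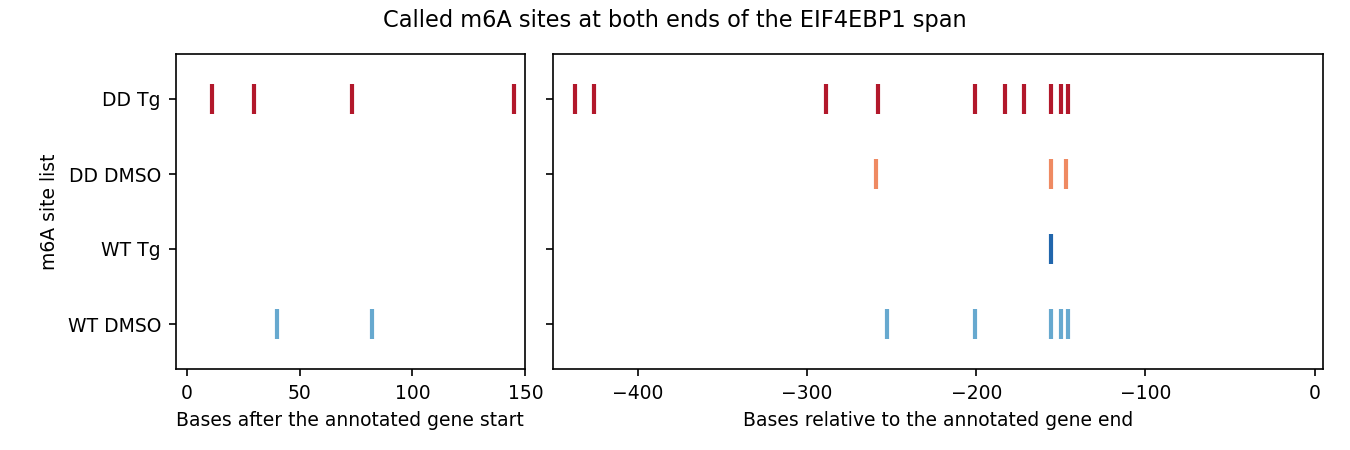
Called m6A positions in the first 150 bases (left) and the last 450 bases (right) of the EIF4EBP1 span, in bases from the annotated start and end, 1 row per list and 1 bar per position. DD Tg has 4 and 10 bars, DD DMSO 0 and 3, WT Tg 0 and 1, and WT DMSO 2 and 5, and the bar 156 bases before the end is present in all 4 rows.

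Of the other 9 genes, NCBP2 held 1 position, chr3:196936451 on the minus strand in DD Tg, 1045 bases inside the low-coordinate end of its span, which is the end of the transcript. Within 1000 bases outside the span, counted on either strand, there were 2 more in DD Tg and 2 in WT DMSO. The gene to which these belong was not determined. The other 8 genes held none in any list. With a count of 0 the upper Wilson bound was 0.0760% of the DD Tg list, 0.213% of DD DMSO, 0.244% of WT Tg and 0.128% of WT DMSO. The lists name positions that were called and give no depth, and the 8 genes without any were at most at 14.0 RPKM in RNA-Seq against 167 or more for EIF4EBP1. Whether the level of the mRNA set the number of called positions was not tested.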

How the data were processed

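RNA-Seq, Subunit-Seq and m6A-eCLIP of HEK293T cells gave 32 samples in 16 groups of 2. The authors deposited RPKM values for 58721 genes, of which 58252 had symbols, in 1 RNA-Seq table and 1 Subunit-Seq table per replicate, and lists of m6A positions without score or coverage. Per the submitters' processing notes, the tools were BWA, STAR, cutadapt and DESeq2 and the build was GRCh38, with no role or version. The gene counter, annotation, strand setting and site caller are not given in the sources used here. Per the labels' protocols, RNA-Seq used a kit for polyadenylated RNA and Subunit-Seq a directional kit.

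The deposited RPKM values of a gene step by 1 read, so whole reads were recovered for 26179 of 26179 genes above 0 in at least 3 libraries, within 0.02 reads. These give the depths and a voom alternative, and show both Subunit-Seq tables to be on 1 scale (step times total agreed within 1.0004 times). RPKM was tested as log2(RPKM + 1) with limma 3.58.1 in R 4.3.3 (eBayes with trend, two-sided, Benjamini-Hochberg over all genes, threshold 0.05), so fold changes of low genes are understated. RNA-Seq kept genes with a mean of 1 RPKM over 8 libraries, with group as the only term. Subunit-Seq kept genes with a mean of 1 RPKM over the 4 inputs and had the replicate number as a second term, since its tables are per replicate. There eBayes gave the all-gene trend of the spread full weight, so a gene's own spread did not enter its SE. The code of the tests was checked on simulated data with an equal spread for all genes, large changes and no replicate effect. That check does not give the power or the rate of false calls in these data. Summaries used Python 3.11.15 with pandas 2.3.3, numpy 2.4.6 and scipy 1.17.1, and gene spans and promoters came from RefSeq (GRCh38.p14).

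By rule, the genes named were all 10 members, EIF3D, TRIB3 beside EIF4EBP1, up to 3 called genes per pathway list and comparison by size, the 3 nearest profiles of EIF4E, EIF4EBP1 and NCBP1, and the marker genes of HEK293T and of other cell types. EIF4A1, EIF4EP2, NCBP2AS2, ANKHD1 and ANKHD1-EIF4EBP3 were added after their values were seen. The members and lists were chosen with earlier results of these data known.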

Additional observations from a re-analysis of the deposited data

How the results depend on the processing

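In RNA-Seq, 0 of the 8 tested genes were called in any comparison under all 16 alternatives, and 0 were called between inputs, between IPs or in the treatment difference of recovery under all 15. Not all 8 genes were tested in each of these settings. The filter at 5 RPKM kept EIF4E2 and EIF4EBP1 in RNA-Seq, and EIF4E2, EIF4EBP1, EIF4EBP2 and NCBP2 in Subunit-Seq. It thus dropped EIF4ENIF1 and NCBP1, the 2 genes called in DMSO, before any test, so its DMSO count of 0 does not bear on them. The IP against input counts changed. The Tg count of 1 was 0 with a pseudocount of 0.1 RPKM, with no filter, with median-ratio scaling, with voom, without the replicate block and, in a choice made after seeing the data, with library totals free of mitochondrial ribosomal RNA, and it ranged from 0 to 4 with 1 library left out. The DMSO count of 2 was 1 with a pseudocount of 0.1 RPKM, 0 with no filter, a filter at 5 RPKM, median-ratio scaling, voom or no replicate block, and 3 with the mitochondrial reads left out, and ranged from 0 to 5 with 1 library left out. Over all genes the fits without the replicate block called 36 in Tg and 24 in DMSO, against 1591 and 2272 with it. The labels give the replicate numbers and no shared culture or day. In RNA-Seq the deviations of same-numbered libraries correlated at 0.743 to 0.864 among DD DMSO, WT Tg and WT DMSO. Between these groups and DD Tg they correlated at 0.134 to 0.299. The main RNA-Seq fit had no replicate term, so its SEs include the shared part. In Subunit-Seq the correlations were 0.002 to 0.510, and both assays have only 2 replicate numbers.

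Some signs turned, and the cause was not tested. For EIF4EBP1, DD Tg against DD DMSO was 0.44 with the replicate block and without the second DD Tg library, and ranged from -1.87 to 0.082 with 1 library left out. DD Tg against WT Tg was 0.086 with that block and library choice. The genotype difference in the Tg response was 0.80 with it, 0.09 without the second WT Tg library, and ranged from -1.51 to 0.44. WT Tg against WT DMSO was 0.10 without the second WT DMSO library and ranged from -0.98 to 0.27. The EIF4EBP1 recovery difference was 0.22 with median-ratio scaling and ranged from -0.51 to 0.48, at 0.10 without the first Tg IP, 0.18 without the second Tg input and 0.17 without the second DMSO IP. With median-ratio scaling EIF4E in the IP against input was -0.094 in Tg and -0.0075 in DMSO. EIF4E2 ranged from -0.80 to 0.16 in Tg and from -0.87 to 0.13 in DMSO. The m6A counts of EIF4EBP1 stayed at 15, 3, 1 and 7 with 1000 bases added on each side of its span. Counting by strand could not change them, because the strand shared by all its positions was the one counted. The number of positions in all 4 lists stayed at 1 when positions within 5 bases counted as shared. EIF4EBP3 had 0 to 10 reads per library, too few to read a difference.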
